A study of Mus musculus with 8 samples.

Results

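The Tdpoz genes (Tdpoz1 to Tdpoz5) were followed across 8 bulk RNA-seq libraries of mouse embryonic stem cells (ESCs). They were taken by symbol through the annotation of the gene identifiers, which gave 5 of the 55573 genes in the table. The 4 groups hold 2 libraries each. The 2C::GFP+/SA cells carried the 2C::GFP reporter and were grown in serum-replacement medium with 2 µM SGC0946, 2 µM AS8351 and IL6 with its soluble receptor. The 2C::GFP+/SGC cells carried the same reporter and received 2 µM SGC0946 in serum-replacement medium with LIF. The 2C::GFP+ cells were untreated reporter cells, and the mESC group was wild type and untreated. SGC0946 is an inhibitor of DOT1L, the H3K79 methyltransferase. AS8351 has been described as blocking KDM5B, which removes methyl groups from H3K4. The labels give all 4 groups as ESCs. They do not name the promoter of the reporter, the number of clones, or whether cells were sorted for it, and the 2C::GFP+ columns were identified by elimination.

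TDPOZ proteins pair a TRAF-like domain, also called MATH, with a POZ domain, also called BTB. The best known protein of this build is SPOP, which binds its substrates through the MATH domain and the CUL3 ubiquitin ligase through the BTB domain. Tdpoz genes are mostly without introns, lie in a cluster on mouse chromosome 3, and are known for transcripts in oocytes and 2-cell embryos. The small subset of ESCs with a 2-cell-like transcript profile, marked by the transcription factor DUX and by MERVL retroviral elements, is known to transcribe the cluster as well.

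All 5 genes are annotated as protein coding on chromosome 3 (GRCm38) within 310 kb. Tdpoz2 (ENSMUSG00000103362) spans chr3:93651542-93652686 on the minus strand. Tdpoz1 (ENSMUSG00000094084) spans chr3:93669333-93676310 on the minus strand and is the only member with a transcript of 2 exons. Tdpoz4 (ENSMUSG00000060256) spans chr3:93796398-93797510 and Tdpoz3 (ENSMUSG00000058005) spans chr3:93826020-93827117, both on the plus strand. Tdpoz5 (ENSMUSG00000094163) spans chr3:93960292-93961314 on the minus strand. Tdpoz2, Tdpoz3, Tdpoz4 and Tdpoz5 each have 1 exon.

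The transcripts of the members are 78.2% to 88.3% identical to each other by blastn. Tdpoz1 and Tdpoz3 are the closest pair, at 88.3% over 1099 bases, and Tdpoz4 stands furthest from the others, at 78.2% to 79.1%. Outside the family, 24 genes have a transcript of at least 50% identity to a member over at least 500 bases. Of these relatives, 20 lie on chromosome 3 and 4 elsewhere, and 14 are annotated as pseudogenes. Several relatives are nearer to a member than any member is. Gm10697, which RefSeq calls Tdpoz7, is 100% identical to Tdpoz5 over 1023 bases, and Gm4982 is 99.0% identical to Tdpoz3. Gm37596 is 98.9% identical to Tdpoz5. Gm9141 and Gm5773 are 98.2% and 98.0% identical to Tdpoz2, and Gm9117 and Gm9125 are both 97.6% identical to Tdpoz1. Gm5541 and Gm4858 are 97.3% and 94.7% identical to Tdpoz4.

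This likeness limits how reads can be assigned to single members. Of the 50-base stretches in a member's transcripts, the share that also occurs in transcripts of another gene was 66.2% for Tdpoz3, 48.3% for Tdpoz2, 44.4% for Tdpoz1, 41.2% for Tdpoz4 and 100% for Tdpoz5. For stretches of 100 bases these shares were 46.7% for Tdpoz3, 22.1% for Tdpoz2, 23.8% for Tdpoz1, 11.6% for Tdpoz4 and 100% for Tdpoz5. Because the handling of reads with several matches is not stated, the levels of Tdpoz1, Tdpoz2, Tdpoz3 and Tdpoz4 are uncertain towards their copies. Among these, Tdpoz4 rests on the largest share of stretches found in no other gene. Tdpoz5 has no stretch of either length to itself, so counting of unique matches alone would leave it at 0 whatever its level.

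RefSeq start regions (GRCm38.p6, from 250 bases before to 50 after the annotated start) were at hand for 3 of the 5 members, Tdpoz1, Tdpoz4 and Tdpoz5. They are shown for the members with counts because the windows at the annotated starts of Tdpoz1 and Tdpoz4 differ in the motifs found. Where transcription starts was not measured here. The windows of Tdpoz1 (chr3:93676234-93676533, minus strand), Tdpoz4 (chr3:93796148-93796447, plus strand) and the upstream start of the relative Tdpoz8, listed as Gm4858 (chr3:93068573-93068872, plus strand), read 5′ to 3′ as follows. Capitals mark a TATA box variant (TATATAA), the opposite strand of GGATTA, a core bound by OBOX and other paired-like homeodomain proteins, and, in Tdpoz8, a match to the DUX core that overlaps the TATA box variant.
Tdpoz1: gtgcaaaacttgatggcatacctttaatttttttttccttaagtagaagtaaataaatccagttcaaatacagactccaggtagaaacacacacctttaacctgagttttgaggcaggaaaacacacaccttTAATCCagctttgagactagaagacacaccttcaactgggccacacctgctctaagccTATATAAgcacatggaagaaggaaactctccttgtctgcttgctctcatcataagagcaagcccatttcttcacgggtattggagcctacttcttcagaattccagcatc
Tdpoz4: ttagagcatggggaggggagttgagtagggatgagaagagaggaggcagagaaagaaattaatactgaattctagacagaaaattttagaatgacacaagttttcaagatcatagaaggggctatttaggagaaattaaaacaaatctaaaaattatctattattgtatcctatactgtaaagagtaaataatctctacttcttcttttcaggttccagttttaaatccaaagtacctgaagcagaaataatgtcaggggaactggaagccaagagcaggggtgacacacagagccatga
Tdpoz8: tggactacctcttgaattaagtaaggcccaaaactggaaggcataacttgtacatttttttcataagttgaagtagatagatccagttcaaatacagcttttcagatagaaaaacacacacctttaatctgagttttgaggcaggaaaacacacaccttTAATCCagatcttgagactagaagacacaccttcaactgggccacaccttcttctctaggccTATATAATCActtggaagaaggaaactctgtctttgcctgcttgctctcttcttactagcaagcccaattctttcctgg

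The Tdpoz1 window holds TATATAA at position -60 from the RefSeq start and GGATTA at -118 on the opposite strand. The Tdpoz8 window holds both motifs, at -29 and -91, and TGATTNNAT, the core of the DUX motif, on the opposite strand at -28, where its letters overlap those of TATATAA. The 2 windows align at 85.8% identity over 267 bases, and the Tdpoz1 window aligns with that of Gm9125 (Tdpoz9) at 99.6% over 273 bases. In the Gm9125 window TATATAA stands at -33. GENCODE begins Tdpoz1 at 93676310, upstream of the RefSeq start used here, so positions in Tdpoz1 depend on the annotation. None of the 5 motifs searched on both strands was found in the Tdpoz4 or the Tdpoz5 window. The Tdpoz4 window aligned with a second, downstream start of Tdpoz8 at 94.3% identity over 300 bases. That downstream start lies within the second exon of a Gm4858 transcript in GENCODE, chr3:93073486-93073588, whose first exon begins at 93068823. Other Gm4858 transcripts in GENCODE begin near the downstream start, at 93073537 and 93073567. Over all 32851 RefSeq windows of this length, TATATAA occurs in 3.24%, GGATTA in 7.06% and TGATTNNAT in 3.0%. The other motifs searched were TATAAA, the TATA box, in 13.6% of windows, and TGCACAC, a ZSCAN4 core, in 4.4%.

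The libraries held 12299931 to 145810034 counts, and replicate 1 was the deeper one in every group. The limit that a count of 0 allows (3 counts) was 0.0215 CPM in the deepest scaled library and 0.231 CPM in the shallowest. The 8 ESC marker genes, among them Pou5f1 and Nanog, were detected in all groups with summed levels of 4550 to 6220 CPM. Among markers of other cells, the 6 primitive endoderm genes summed to 62.4 to 90.5 CPM in 2C::GFP+/SA, 8.53 to 17.1 CPM in 2C::GFP+/SGC, 5.56 to 10.8 CPM in 2C::GFP+ and 4.87 to 5.65 CPM in mESC. The 10 feeder fibroblast genes summed to 40.2 to 43.1 CPM in 2C::GFP+/SA, 24.4 to 25.0 CPM in 2C::GFP+/SGC, 16.7 to 18.2 CPM in 2C::GFP+ and 9.24 to 14.2 CPM in mESC. The 10 oocyte genes summed to 8.63 to 10.7 CPM in 2C::GFP+/SA, 12.3 to 16.5 CPM in 2C::GFP+/SGC, 13.5 to 25.2 CPM in 2C::GFP+ and 8.21 to 12.9 CPM in mESC. The 8 trophoblast genes summed to 36.5 to 54.8 CPM in 2C::GFP+/SA, 51.3 to 65.7 CPM in 2C::GFP+/SGC, 35.7 to 41.9 CPM in 2C::GFP+ and 105 to 117 CPM in mESC. The part of these cells in the values below was not tested.

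Levels of the members are compared with each other in the deposited TPM, which is scaled by gene length. Tdpoz3 was the most abundant member in every library. It had 772.8 and 287.9 TPM in 2C::GFP+/SA (replicates 1 and 2), 101.9 and 43.28 TPM in 2C::GFP+/SGC, 41.56 and 30.91 TPM in 2C::GFP+, and 0.2743 and 0.9719 TPM in mESC. Every reporter library stood above both mESC libraries, both 2C::GFP+/SA libraries stood above all others, and the lower 2C::GFP+/SGC library exceeded the higher 2C::GFP+ library only slightly, while in CPM these 2 groups overlapped.

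Tdpoz4 followed the same order. It had 398.7 and 203.5 TPM in 2C::GFP+/SA, 68.24 and 30.46 TPM in 2C::GFP+/SGC, 19.23 and 15.9 TPM in 2C::GFP+, and 0.1665 and 0 TPM in mESC. No 2 groups overlapped for Tdpoz4. In mESC it rested on 8 counts in replicate 1 and none in replicate 2.

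Tdpoz1 was lower by far. It had 8.793 and 4.36 TPM in 2C::GFP+/SA, 1.327 and 0.4207 TPM in 2C::GFP+/SGC, 0.539 and 0.177 TPM in 2C::GFP+, and no count in mESC. The 2C::GFP+/SGC and 2C::GFP+ libraries overlapped. In replicate 2, Tdpoz1 rested on 37 counts in the SA-treated cells, 4 in the SGC-treated cells and 2 in the untreated reporter cells.

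Tdpoz2 had the lowest mean of the members with counts in 2C::GFP+/SA and 2C::GFP+. It had 4.216 and 0.2422 TPM in 2C::GFP+/SA, 1.684 and 0.8646 TPM in 2C::GFP+/SGC, 0.2308 and 0.1818 TPM in 2C::GFP+, and no count in mESC. Its 2 libraries of 2C::GFP+/SA differed by 21.9 times in CPM (154 counts and 1 count). In CPM, replicate 2 (0.07704) lay between the 2C::GFP+ libraries (0.08345 and 0.0594), while in TPM it lay slightly above both. Tdpoz5 had 0 counts in all 8 libraries, and its copy Gm10697, which shares its whole sequence, had 2 counts in all. With its sequence shared in full, a count of 0 does not give the level of Tdpoz5.

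The family sum was 460.6 and 153.7 CPM in 2C::GFP+/SA, 54.43 and 22.91 CPM in 2C::GFP+/SGC, 21.65 and 14.91 CPM in 2C::GFP+, and 0.153 and 0.308 CPM in mESC. In TPM it averaged 840 ± 486 in 2C::GFP+/SA, 124 ± 69.4 in 2C::GFP+/SGC, 54.4 ± 10.2 in 2C::GFP+ and 0.706 ± 0.376 in mESC (SD, n = 2 each). Neighbouring groups in this order did not overlap, but the SD within 2C::GFP+/SA and within 2C::GFP+/SGC was large beside the mean. In bulk RNA, more cells that transcribe the genes and more RNA per cell cannot be told apart.

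**Figure D1:**
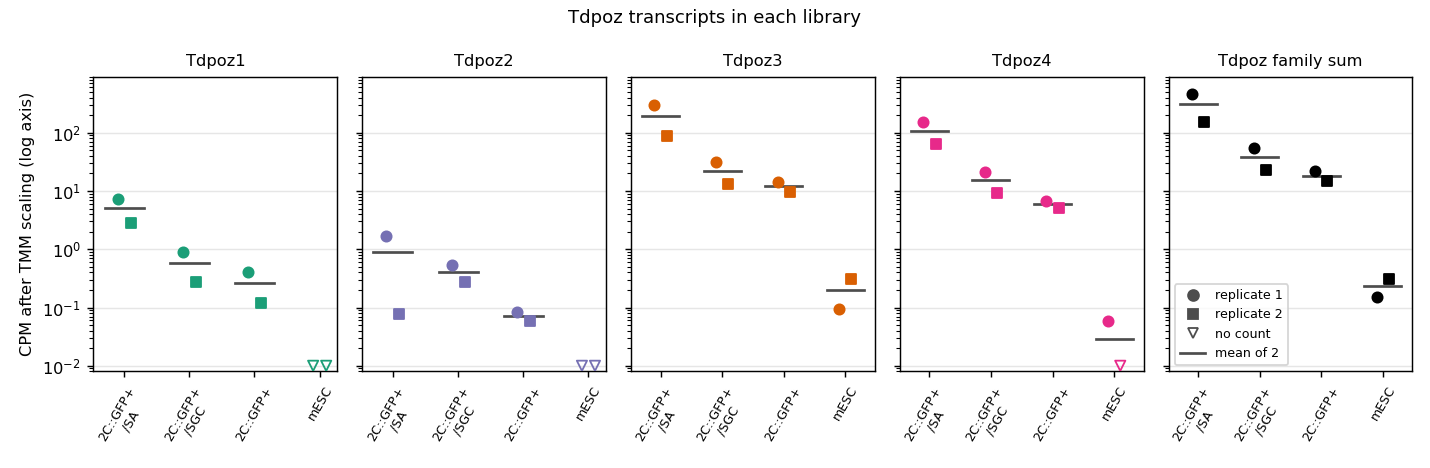
CPM after TMM scaling of the 4 Tdpoz members with counts and of the family sum, on a log axis, for each library (circles replicate 1, squares replicate 2, open triangles no count, bars the mean of 2). The family sum lies at 460.6 and 153.7 CPM in 2C::GFP+/SA and at 0.153 and 0.308 CPM in mESC, and Tdpoz2 in 2C::GFP+/SA replicate 2 falls to 0.07704 CPM.

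The first comparison asks how untreated reporter cells differ from wild-type ESCs. Tdpoz3 averaged 12.0 ± 3.34 CPM in 2C::GFP+ and 0.201 ± 0.151 CPM in mESC, and Tdpoz4 5.9 ± 1.21 CPM in 2C::GFP+ and 0.0291 ± 0.0412 CPM in mESC (SD, n = 2 each). Tdpoz3 rose by 6.57 ± 1.26 (log2 fold change and SE, adjusted p = 0.0241) and Tdpoz4 by 6.86 ± 1.06 (adjusted p = 0.00875). Tdpoz1 rose at least 19.1-fold, with 50 counts over the 2C::GFP+ libraries, 48 of them in replicate 1, and none over the mESC libraries (adjusted p = 0.00425). With the 2C::GFP+ libraries weighted equally this lower bound was 13.6-fold, and without mESC replicate 1 it was 2.38-fold. Tdpoz2, with 11 counts in 2C::GFP+ and none in mESC, did not pass the test (adjusted p = 0.0901). Its counts gave a bound of 4.2-fold, and none above 1 against mESC replicate 2 alone. Of the 4 tested members 3 rose and 0 fell, and of all tested genes 15.2% rose and 9.12% fell. Tdpoz1 and Tdpoz2 passed the filter on low counts through the treated libraries: with only the 2C::GFP+ and mESC libraries, Tdpoz3 (6.47, adjusted p = 4.26e-06) and Tdpoz4 (6.88, adjusted p = 7.09e-06) were the members tested. The count of 3 is therefore given as a description. The median log2 fold change was 6.72 over the 4 members, or 5.41 with Tdpoz1 and Tdpoz2 at their bounds, and 0.04 over all genes. The family sum was 79.3-fold higher in 2C::GFP+ than in mESC.

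These calls depended on single libraries and settings, although no direction changed. The Tdpoz1 call ended without 2C::GFP+ replicate 1 (adjusted p = 0.127) or mESC replicate 1 (adjusted p = 0.141), and with limma on log2(TPM + 1) (0.43, adjusted p = 0.472) or log2(TPM + 0.1) (2.07, adjusted p = 0.0808). The Tdpoz3 call ended without either 2C::GFP+ library (0.0693 for replicate 1, 0.104 for replicate 2), without 2C::GFP+/SGC replicate 2 (0.0584), without mESC replicate 1 (0.159, with a log2 fold change of 5.29) or 2 (0.126), and without the filter on low counts (0.0537), all as adjusted p. The Tdpoz4 call ended without 2C::GFP+ replicate 2 (adjusted p = 0.0754) or mESC replicate 1 (0.0813) or 2 (0.0972). Without mESC replicate 1, Tdpoz4 had no count left in mESC, and its fitted value of 11.47 then depends on the prior count. Its counts gave a fold of at least 42.5 in that case. Tdpoz2 passed without 2C::GFP+/SA replicate 2 (adjusted p = 0.0239), with the replicate number as a block (0.0386) and without the filter (0.0331). Of the 7 tested trophoblast markers 1 rose and 4 fell, and of the 7 tested feeder fibroblast markers 3 rose and 0 fell. Of all tested genes 15.2% rose and 9.12% fell, and the part of these markers in the result was not tested. The medium of the mESC group, with or without kinase inhibitors, is not settled by the labels, so that medium and reporter line cannot be told apart here.

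The second comparison sets 2C::GFP+/SGC, with SGC0946, against untreated 2C::GFP+. The medium of the untreated reporter cells is not given here, and a part of medium in these values was not tested. The 4 members with counts each had a higher mean in 2C::GFP+/SGC than in 2C::GFP+, and none passed the test. Tdpoz3 averaged 22.3 ± 13.1 CPM in 2C::GFP+/SGC and 12.0 ± 3.34 CPM in 2C::GFP+, with a value of 0.9 ± 0.77 on the log2 scale (adjusted p = 0.755). Tdpoz4 averaged 15.4 ± 8.57 CPM in 2C::GFP+/SGC and 5.9 ± 1.21 CPM in 2C::GFP+ (1.39 ± 0.6, adjusted p = 0.533), and its groups did not overlap. The log2 fold changes of Tdpoz1 and Tdpoz2 were 1.08 ± 0.69 (adjusted p = 0.632) and 2.48 ± 1.13 (adjusted p = 0.499). The edgeR test called 0% of all genes higher and 0% lower in this comparison (0 of 20608). At an unadjusted p under 0.05 it held 2037 genes, Tdpoz2 among them, and DESeq2 called 274 genes and no member. The family sum was 2.12-fold higher in 2C::GFP+/SGC. With the replicate number as a block, Tdpoz4 passed (1.35, adjusted p = 0.00949). Without 2C::GFP+/SGC replicate 1 the value of Tdpoz1 was -0.16 (adjusted p = 0.978).

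The third comparison sets the full SA condition against untreated reporter cells. All 4 tested members rose. Tdpoz4 averaged 109 ± 65.2 CPM in 2C::GFP+/SA and 5.9 ± 1.21 CPM in 2C::GFP+, and rose by 4.18 ± 0.65 on the log2 scale (adjusted p = 0.00829). Tdpoz3 averaged 192 ± 148 CPM in 2C::GFP+/SA and 12.0 ± 3.34 CPM in 2C::GFP+, and rose by 3.98 ± 0.84 (adjusted p = 0.0282). Tdpoz1 rose by 4.04 ± 0.71 (adjusted p = 0.00143), with 697 counts over the 2C::GFP+/SA libraries and 50 over the 2C::GFP+ libraries. Tdpoz2 passed as well (3.64 ± 1.12, adjusted p = 0.0288), but its groups overlapped and its call rested on 1 library: without 2C::GFP+/SA replicate 1 its log2 fold change was 0.03 (adjusted p = 0.994). Of all tested genes, 14.9% rose and 13.8% fell. The median log2 fold change was 4.01 over the 4 members and 0.01 over all genes. The family sum was 16.8-fold higher in 2C::GFP+/SA, with log2 ratios of 4.41 in replicate 1 and 3.37 in replicate 2.

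The Tdpoz1 call held in all 15 alternatives, with log2 fold changes of 2.43 to 5.44. Its highest value, 5.44, came when 2C::GFP+ replicate 1 was left out, and leaving out 2C::GFP+/SA replicate 1 gave 3.27. Without 2C::GFP+/SA replicate 1, Tdpoz3 stood at 2.87 (adjusted p = 0.0118) and Tdpoz4 at 3.42 (adjusted p = 0.000671). Without 2C::GFP+/SA replicate 2, Tdpoz3 stood at 4.62 and Tdpoz2 at 4.45. With only the libraries compared, Tdpoz2 did not pass the filter. The Tdpoz3 call ended when a 2C::GFP+ library was left out (adjusted p = 0.103 for replicate 1, 0.183 for replicate 2), and likewise without 2C::GFP+/SGC replicate 2 (0.0639), mESC replicate 2 (0.0824) or the filter on low counts (0.0625). The Tdpoz4 call ended without 2C::GFP+ replicate 1 (adjusted p = 0.054) or 2 (0.115). Beside 2C::GFP+/SA replicate 1, the Tdpoz2 call needed 2C::GFP+/SGC replicate 1 (adjusted p = 0.0503 without it) and both 2C::GFP+ libraries (0.203 and 0.11 without replicates 1 and 2), and it did not pass with limma on TPM (0.186 with a pseudocount of 1). The primitive endoderm markers moved with this comparison, 6 of 6 rising with a median log2 fold change of 3.59, and 4 of 7 tested feeder fibroblast markers rose. Of the 8 ESC markers, 1 rose and 5 fell (62.5%), where 13.8% of all tested genes fell. The part of any of these markers in the result was not tested.

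The fourth comparison, 2C::GFP+/SA against 2C::GFP+/SGC, covers the addition of AS8351 and the change from LIF to IL6 with its soluble receptor, which cannot be told apart. Tdpoz1 rose by 2.97 ± 0.66 (adjusted p = 0.0108) and Tdpoz4 by 2.79 ± 0.61 (adjusted p = 0.0383). Tdpoz3 had a log2 fold change of 3.07 ± 0.8 without passing (adjusted p = 0.0741), although its groups did not overlap. DESeq2 (3.18, adjusted p = 0.00146), limma on log2(TPM + 1) (2.81, adjusted p = 0.0095) and the replicate block (3.02, adjusted p = 0.0126) put Tdpoz3 past the threshold. Tdpoz2 did not pass (1.17 ± 0.94, adjusted p = 0.457), and its value was -2.46 (adjusted p = 0.4) without 2C::GFP+/SA replicate 1. Of all tested genes, 7.92% rose and 8.18% fell, and 2 of the 4 members rose. The median log2 fold change was 2.88 over the members and -0.02 over all genes. The family sum was 7.94-fold higher in 2C::GFP+/SA, with log2 ratios of 3.08 in replicate 1 and 2.75 in replicate 2.

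The Tdpoz1 call ended without 2C::GFP+/SA replicate 1 (2.17, adjusted p = 0.14). The Tdpoz4 call ended without 2C::GFP+/SGC replicate 2 (adjusted p = 0.22), 2C::GFP+ replicate 1 (0.058) or 2 (0.142), or mESC replicate 1 (0.051) or 2 (0.139), while its log2 fold change stayed between 2.35 and 2.83 in these fits. Without 2C::GFP+/SA replicate 1 it was 2.01 (adjusted p = 0.0152) and without 2C::GFP+/SGC replicate 1 it was 3.57 (adjusted p = 0.0406), where Tdpoz1 stood at 4.25 (adjusted p = 0.044). Without the filter on low counts its adjusted p was 0.11, and with only the 4 libraries compared 0.0941. Of the primitive endoderm markers, 4 of 6 rose in this comparison, and of the 8 ESC markers 1 rose and 2 fell. The part of these markers in the result was not tested.

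Against mESC, 4 of 4 tested members rose in 2C::GFP+/SA, where 25% of all tested genes rose and 20.1% fell. Tdpoz1 and Tdpoz2 had no count in mESC and passed the filter on low counts through libraries where they are high. The count of 4 is therefore given as a description. With only the libraries compared, Tdpoz2 did not pass the filter and 3 members were called. Tdpoz3 rose by 10.55 ± 1.29 (adjusted p = 0.00292) and Tdpoz4 by 11.04 ± 1.04 (adjusted p = 0.000673). Tdpoz1 rose at least 349-fold (adjusted p = 2.56e-05) and Tdpoz2 at least 77.7-fold (adjusted p = 0.00159), both against no count in mESC. These bounds use summed counts and lean on 2C::GFP+/SA replicate 1, which held 660 of the 697 counts of Tdpoz1 and 154 of the 155 counts of Tdpoz2. With the 2C::GFP+/SA libraries weighted equally they were 263-fold for Tdpoz1 and 46.1-fold for Tdpoz2. Without 2C::GFP+/SA replicate 1 the bound of Tdpoz1 was 149-fold, and the single count of Tdpoz2 gave none. Without mESC replicate 1 they were 43.4-fold for Tdpoz1 and 9.66-fold for Tdpoz2. Tdpoz3 stood at 9.43 without 2C::GFP+/SA replicate 1, at 11.2 without 2C::GFP+/SA replicate 2 and at 9.31 without mESC replicate 1, with its call kept. Tdpoz4 stood at 10.28 without 2C::GFP+/SA replicate 1, and without mESC replicate 1, where mESC had no count of it left, its counts gave a fold of at least 933. The Tdpoz2 call ended without 2C::GFP+/SA replicate 1 (adjusted p = 0.153) and with limma on log2(TPM + 1) (0.0798). The median log2 fold change of the members was 10.8, or 9.5 with Tdpoz1 and Tdpoz2 at their bounds, and 0.03 over all genes. The family sum was 1330-fold higher in 2C::GFP+/SA, and the log2 ratio was 11.56 in replicate 1 and 8.96 in replicate 2. This comparison shares its libraries with those above, and medium and line cannot be told apart in it either.

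In the reporter libraries, the shares of Tdpoz3 and Tdpoz4 changed little beside the level of the family. Tdpoz3 took 64.4% (exact 95% interval 63.9% to 64.8%) and 57.1% (54.9% to 59.3%) of the family counts in the 2C::GFP+/SA libraries, 58.0% (56.9% to 59.1%) and 57.0% (51.5% to 62.3%) in the 2C::GFP+/SGC libraries, and 66.6% (64.7% to 68.4%) and 64.9% (58.7% to 70.8%) in the 2C::GFP+ libraries. Tdpoz4 took 33.7% and 41.0% in the 2C::GFP+/SA libraries, 39.4% and 40.7% in the 2C::GFP+/SGC libraries, and 31.2% and 33.9% in the 2C::GFP+ libraries. The shares of Tdpoz3 in the 2C::GFP+/SGC libraries lay below those in the 2C::GFP+ libraries. The intervals of the replicates numbered 1 did not overlap, while those of the replicates numbered 2 did. The 2C::GFP+/SA libraries spread over both groups. Tdpoz1 held 0.797% to 1.85% and Tdpoz2 0.0501% to 1.19% of the family counts in the 6 reporter libraries. In mESC the family had 21 and 6 counts, of which Tdpoz3 took 13 and 6. The ratio of Tdpoz3 to Tdpoz4 in TPM was 1.94 and 1.41 in the 2C::GFP+/SA libraries, 1.49 and 1.42 in the 2C::GFP+/SGC libraries, 2.16 and 1.94 in the 2C::GFP+ libraries, and 1.65 in mESC replicate 1.

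**Figure D2:**
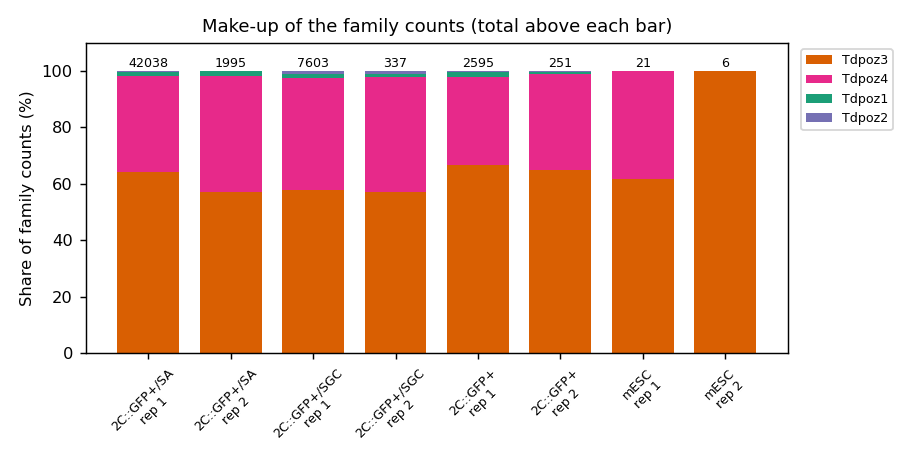
Share of the family counts taken by Tdpoz3, Tdpoz4, Tdpoz1 and Tdpoz2 in each library, in percent, with the family counts above each bar. Tdpoz3 and Tdpoz4 make up nearly all counts in each library, with Tdpoz3 at 57.0% to 66.6% in the 6 reporter libraries, and the mESC bars rest on 21 and 6 counts.

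The relatives of the members were measured too, and 19 of the 24 passed the filter. In 2C::GFP+ against mESC, 17 of 19 rose and 0 fell, where 15.2% of all tested genes rose and 9.12% fell. In 2C::GFP+/SGC against 2C::GFP+ none passed, 18 of 19 had a positive value and their median log2 fold change was 1.16. Between 2C::GFP+/SA and 2C::GFP+, 18 rose and 1 fell, where 14.9% of all tested genes rose and 13.8% fell. The one that fell was Spop, the general CUL3 adaptor on chromosome 11, and the other 18 rose by log2 fold changes of 3.06 to 6.16. Between 2C::GFP+/SA and 2C::GFP+/SGC, 16 rose and 0 fell, where 7.92% of all tested genes rose and 8.18% fell. In 2C::GFP+/SA against mESC, 18 rose and 0 fell, where 25% of all tested genes rose and 20.1% fell. Several relatives, among them Gm9141, Gm9117 and Gm5773, had no count in mESC. Gm37596 and Gm5852, with 4 and 2 counts in 2C::GFP+ and none in mESC, passed the filter through treated libraries. Relatives also share sequence with members and with each other, so their counts against mESC are given as a description.

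Gm4778, which RefSeq calls Spopfm1, was the most abundant chromosome 3 relative and the one with the lowest share of sequence in common with other genes: 10.3% of its 50-base stretches and 0.0% of its 100-base stretches. It averaged 454 ± 193 TPM in 2C::GFP+/SA, 54.6 ± 16.3 TPM in 2C::GFP+/SGC, 27.0 ± 3.04 TPM in 2C::GFP+ and 0.386 ± 0.141 TPM in mESC, between Tdpoz3 and Tdpoz4. It rose by 4.16 ± 0.5 in 2C::GFP+/SA against 2C::GFP+ (adjusted p = 0.00247) and by 5.85 ± 0.7 in 2C::GFP+ against mESC (adjusted p = 0.00255). Gm4858 (Tdpoz8), with 15.1% and 6.6% of its stretches shared, averaged 182 ± 48.4 TPM in 2C::GFP+/SA, 30.3 ± 8.53 TPM in 2C::GFP+/SGC, 12.5 ± 1.5 TPM in 2C::GFP+ and 0.0794 ± 0.00518 TPM in mESC. It rose by 3.93 ± 0.33 in 2C::GFP+/SA against 2C::GFP+ (adjusted p = 6.75e-05). Among the near copies, Gm4982 reached 71.2 ± 47.2 TPM in 2C::GFP+/SA and 5.98 ± 0.419 TPM in 2C::GFP+, below its counterpart Tdpoz3 in both, and Gm5541 reached 114 ± 54 TPM in 2C::GFP+/SA and 6.15 ± 2.08 TPM in 2C::GFP+, below Tdpoz4. The near copy Gm5773 had 13.7 ± 6.28 TPM in 2C::GFP+/SA, where Tdpoz2 had 2.23 ± 2.81 TPM. The near copies Gm9117 and Gm9125 had 3.43 ± 1.14 and 5.42 ± 2.15 TPM there, where Tdpoz1 had 6.58 ± 3.13 TPM. Of the 50-base stretches, 93.9% of Gm9117, 89.1% of Gm9125 and 68.1% of Gm5773 were shared. For Tdpoz1 and Tdpoz2 the shares were 44.4% and 48.3%. With multi-matched reads handled in an unknown way, the order of copies and members in TPM is uncertain.

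The 4 members with counts took 34.9% and 30.3% of the summed CPM of members and chromosome 3 relatives in the 2C::GFP+/SA libraries, 36.4% and 29.8% in the 2C::GFP+/SGC libraries, 35.7% and 33.6% in the 2C::GFP+ libraries, and 27.3% and 54.5% in mESC, where the sums were smallest. The relatives alone summed to 858 and 354 CPM in 2C::GFP+/SA, 95.2 and 54.0 CPM in 2C::GFP+/SGC, 39.0 and 29.4 CPM in 2C::GFP+, and 0.408 and 0.257 CPM in mESC. Members and relatives thus kept similar proportions across the reporter groups.

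Within 500 kb on either side of the members, 79 genes are annotated and 59 had a count. Besides members and relatives, 15 genes of this window were tested. Of these, 2 rose in 2C::GFP+ against mESC, 5 rose in 2C::GFP+/SA against 2C::GFP+, 2 rose in 2C::GFP+/SA against 2C::GFP+/SGC, and 6 rose and 1 fell in 2C::GFP+/SA against mESC. As shares, 13.3% of the 15 rose in 2C::GFP+ against mESC, near the 15.2% of all tested genes. In 2C::GFP+/SA against 2C::GFP+, 33.3% rose, where 14.9% of all tested genes did. Against 2C::GFP+/SGC, 13.3% rose in 2C::GFP+/SA, where 7.92% of all tested genes did. Against mESC, 40% rose and 6.67% fell in 2C::GFP+/SA, where 25% and 20.1% of all tested genes did. S100a10, an annexin partner next to the cluster, averaged 76.3 ± 4.37 CPM in 2C::GFP+/SA and 67.3 ± 7.06 CPM in 2C::GFP+, a difference of 0.18 ± 0.15 on the log2 scale (adjusted p = 0.432). S100a11, also a calcium-binding S100 protein, had a value of -0.18 ± 0.21 (adjusted p = 0.584), and the mitochondrial ribosomal protein gene Mrpl9 had -0.17 ± 0.16 (adjusted p = 0.448). Tchh, which encodes the hair follicle protein trichohyalin, rose to 30.8 ± 4.65 CPM in 2C::GFP+/SA, against 6.39 ± 4.06 CPM in 2C::GFP+ (2.32 ± 0.49, adjusted p = 0.00952), and had risen by 4.21 in 2C::GFP+ against mESC (adjusted p = 0.00164). Gm37430, a short pseudogene within the cluster that fell below the length set for relatives, rose by 6.11 ± 1.14 (adjusted p = 0.00173) and was named after its value was seen.

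**Figure D3:**
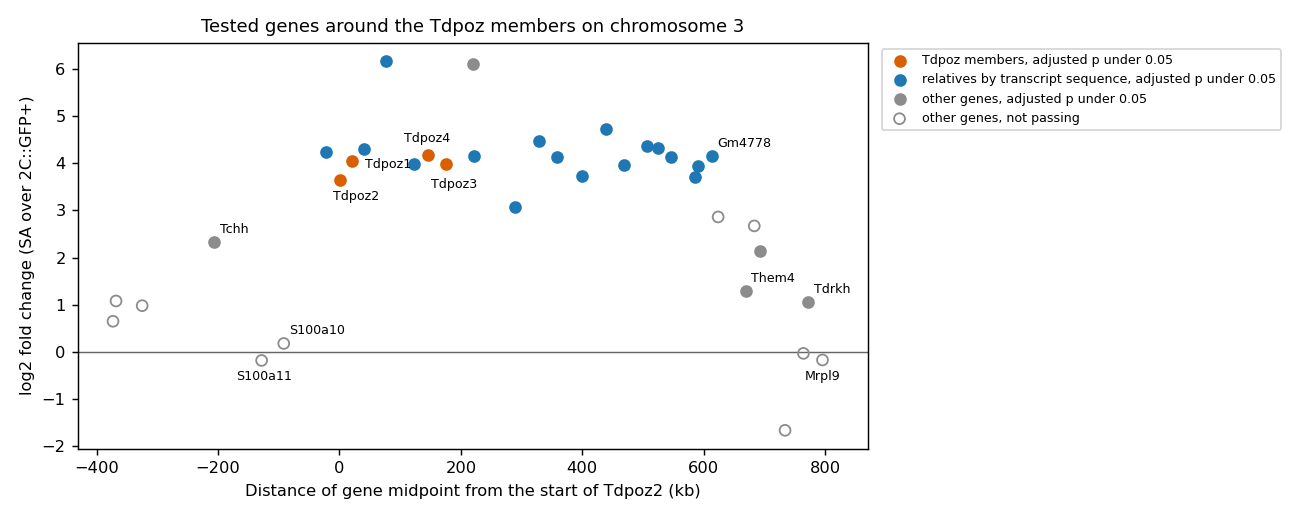
Log2 fold change in 2C::GFP+/SA over 2C::GFP+ of each tested gene within 500 kb of the Tdpoz members, by distance of the gene's midpoint from the start of Tdpoz2 in kb (orange members, blue relatives, grey other genes, filled where the adjusted p is under 0.05). Members and relatives in the window lie between 3.06 and 6.16, and S100a10, S100a11 and Mrpl9 near 0.

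The partners through which a MATH-BTB adaptor would act were read from the same fit. Of 23 genes of the CUL3 ligase, its NEDD8 pathway and the COP9 signalosome, 1 rose and 1 fell in 2C::GFP+ against mESC, none passed in 2C::GFP+/SGC against 2C::GFP+, 1 rose and 6 fell in 2C::GFP+/SA against 2C::GFP+, 1 rose and 2 fell in 2C::GFP+/SA against 2C::GFP+/SGC, and 2 rose and 6 fell in 2C::GFP+/SA against mESC. Their median log2 fold changes lay between -0.21 and 0.02. In 2C::GFP+/SA against 2C::GFP+, 4.35% of these genes rose and 26.1% fell, where 14.9% of all tested genes rose and 13.8% fell. Against 2C::GFP+/SGC, the 8.7% that fell were near the 8.18% of all tested genes. In 2C::GFP+ against mESC, 4.35% rose and 4.35% fell, where 15.2% and 9.12% of all tested genes did. In 2C::GFP+/SA against mESC, 8.7% rose and 26.1% fell, where 25% and 20.1% of all tested genes did. Cul3, the scaffold, averaged 197 ± 31.8 CPM in 2C::GFP+/SA and 155 ± 1.81 CPM in 2C::GFP+ (0.35 ± 0.13, adjusted p = 0.0644). Rbx1, its RING subunit, averaged 72.6 ± 0.105 CPM in 2C::GFP+/SA and 95.4 ± 8.7 CPM in 2C::GFP+ (-0.39 ± 0.13, adjusted p = 0.0326). Uba3, the catalytic subunit of the NEDD8 E1 enzyme, fell by 0.64 ± 0.12 (adjusted p = 0.00156) and Cand2, a cullin exchange factor, fell by 0.81 ± 0.17 (adjusted p = 0.00353), while its homologue Cand1 rose by 1.08 ± 0.22 (adjusted p = 0.00509).

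Spop averaged 45.4 ± 9.9 CPM in 2C::GFP+/SA and 77.0 ± 7.74 CPM in 2C::GFP+, and fell by 0.77 on the log2 scale (SE 0.16, adjusted p = 0.00311), after standing higher in 2C::GFP+ than in mESC by 0.75 ± 0.16 (adjusted p = 0.00378). In TPM, Spop averaged 47.2 ± 17.6 in 2C::GFP+/SA and 48.1 ± 3.28 in mESC, so the summed Tdpoz transcripts stood at 840 ± 486 TPM in 2C::GFP+/SA above it and at 0.706 ± 0.376 TPM in mESC below it. Spopl, the close homologue of Spop, did not pass in 2C::GFP+/SA against 2C::GFP+ (0.42 ± 0.22, adjusted p = 0.166).

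Of 37 other BTB adaptor genes, 6 rose and 6 fell in 2C::GFP+ against mESC, none passed in 2C::GFP+/SGC against 2C::GFP+, 1 rose and 9 fell in 2C::GFP+/SA against 2C::GFP+, 2 rose and 3 fell in 2C::GFP+/SA against 2C::GFP+/SGC, and 6 rose and 11 fell in 2C::GFP+/SA against mESC. The 16.2% that rose in 2C::GFP+ against mESC and the 8.11% that fell in 2C::GFP+/SA against 2C::GFP+/SGC were near the 15.2% and 8.18% of all tested genes. In 2C::GFP+/SA against 2C::GFP+, 2.7% rose and 24.3% fell, where 14.9% and 13.8% of all tested genes did. In 2C::GFP+/SA against mESC, 16.2% rose and 29.7% fell, where 25% and 20.1% of all tested genes did. In 2C::GFP+ against mESC, 16.2% fell, where 9.12% of all tested genes did. Set against 2C::GFP+, 2C::GFP+/SA had less of several adaptors: Keap1, the adaptor for NRF2, fell by 0.87 ± 0.19 (adjusted p = 0.00447), Ibtk fell by 0.59 ± 0.13 (adjusted p = 0.00498), and Rhobtb3 fell by 0.93 ± 0.24 (adjusted p = 0.0114), while Btbd1 rose by 0.52 ± 0.15 (adjusted p = 0.0203).

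Of 22 genes known as regulators of the 2-cell-like state, 10 rose and 0 fell in 2C::GFP+ against mESC, none passed in 2C::GFP+/SGC against 2C::GFP+, 7 rose and 4 fell in 2C::GFP+/SA against 2C::GFP+, 4 rose and 3 fell in 2C::GFP+/SA against 2C::GFP+/SGC, and 11 rose and 5 fell in 2C::GFP+/SA against mESC. In 2C::GFP+ against mESC this was 45.5% rising, where 15.2% of all tested genes rose. In 2C::GFP+/SA against 2C::GFP+ it was 31.8% rising and 18.2% falling, where 14.9% and 13.8% of all tested genes did. In 2C::GFP+/SA against 2C::GFP+/SGC it was 18.2% rising and 13.6% falling, where 7.92% and 8.18% of all tested genes did. In 2C::GFP+/SA against mESC it was 50% rising and 22.7% falling, where 25% and 20.1% of all tested genes did. The list holds both activators of the state and genes whose loss favours it, so these shares have no single direction for the state. Apart from Duxf3, the genes named below were picked by adjusted p and do not stand for the whole list. Duxf3, which encodes DUX, an activator of 2-cell genes, averaged 74.1 ± 3.55 CPM in 2C::GFP+/SA, 11.3 ± 2.93 CPM in 2C::GFP+/SGC, 4.85 ± 0.194 CPM in 2C::GFP+ and 0.0219 ± 0.0309 CPM in mESC. It rose by 3.94 ± 0.24 in 2C::GFP+/SA against 2C::GFP+ (adjusted p = 8.38e-07) and by 6.93 ± 0.4 in 2C::GFP+ against mESC (adjusted p = 5.55e-08). The replicates of Duxf3 in 2C::GFP+/SA were closer to each other than those of the Tdpoz sum, which differed by 3.0 times. Dppa2, which acts upstream of Dux, rose to 598 ± 112 CPM in 2C::GFP+/SA, against 257 ± 3.52 CPM in 2C::GFP+ (1.22 ± 0.15, adjusted p = 6.56e-05). Chaf1b, a subunit of the chromatin assembly factor whose loss favours the 2-cell-like state, fell to 52.9 ± 6 CPM in 2C::GFP+/SA, against 131 ± 1.82 CPM in 2C::GFP+ (adjusted p = 2.21e-05).

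Among 15905 tested genes outside the family and without predicted models, the 5 with the profile most like the family sum over the 8 libraries were Spesp1, Tcstv3, Trim75, Ccser1 and Fam90a1a. Their root mean square distances were 0.346, 0.359, 0.372, 0.388 and 0.394 log2 units. Spesp1, which encodes a sperm equatorial segment protein, averaged 298 ± 163 CPM in 2C::GFP+/SA, 38.3 ± 5.17 CPM in 2C::GFP+/SGC, 16.9 ± 0.832 CPM in 2C::GFP+ and 0.304 ± 0.151 CPM in mESC. Tcstv3, a 2-cell-stage gene, averaged 299 ± 277 CPM in 2C::GFP+/SA, 39.0 ± 19.6 CPM in 2C::GFP+/SGC, 17.6 ± 1.84 CPM in 2C::GFP+ and 0.366 ± 0.208 CPM in mESC. The family sum averaged 307 ± 217 CPM in the 2C::GFP+/SA libraries, 38.7 ± 22.3 CPM in the 2C::GFP+/SGC libraries, 18.3 ± 4.77 CPM in the 2C::GFP+ libraries and 0.23 ± 0.11 CPM in the mESC libraries. The 5 genes lie on chromosomes 9, 13, 8, 6 and 8, away from the cluster. Only Tcstv3 was among the 5 nearest with log2(TPM + 1) as the measure. With predicted models included, none of the 10 nearest genes was a relative of the members by sequence.

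**Figure D4:**
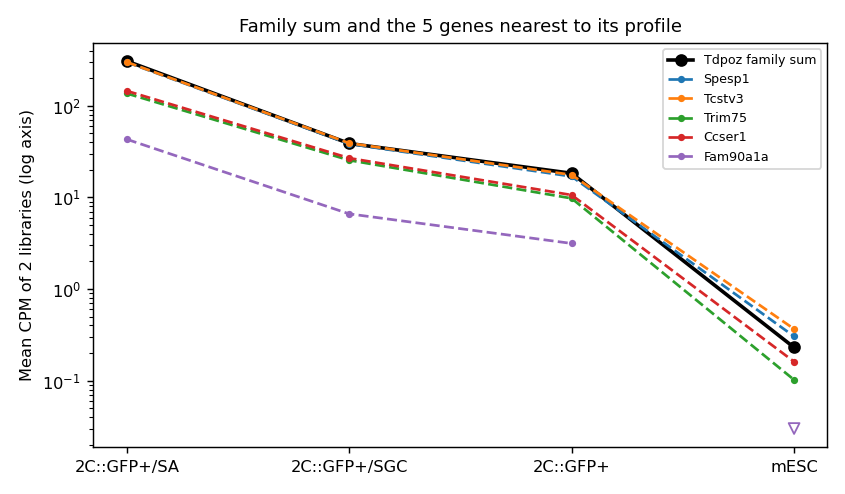
Mean CPM of 2 libraries in each group, on a log axis, for the Tdpoz family sum (black) and the 5 genes nearest to its profile (dashed; open triangle, no count). The family sum, Spesp1 and Tcstv3 run at nearly the same level, with 307, 298 and 299 CPM in 2C::GFP+/SA, and Fam90a1a has no count in mESC.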

How the data were processed

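Polyadenylated RNA was sequenced in bulk from 8 libraries, 2 per group. The count table made by the authors holds whole reads per gene without normalization. The authors' deposited TPM table holds the same genes scaled for length and to a common total. Per the submitters' processing notes, the tools were STAR 2.7.4a, featureCounts 2.0.0, Trim Galore 0.6.5 and FastQC 0.11.9 (Cell Ranger stands there without a version), on mm10 or GRCm38. How multi-mapped reads were counted, the strand setting and the read length are not stated.

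The names of 6 columns match the labels. The 2 columns named KOSR match no label and were taken as untreated 2C::GFP+ by elimination, and all comparisons with 2C::GFP+ rest on this. No column was left out (0 columns not used). Of the 55573 identifiers, 55394 matched the GENCODE M21 (GRCm38) annotation used here.

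Genes were kept by filterByExpr (20608), scaled by TMM and fitted across all 8 libraries by robust quasi-likelihood in edgeR 4.0.16 (R 4.3.3, 4 residual degrees of freedom). P-values are two-sided and adjusted by Benjamini-Hochberg over all 20608 genes, and genes with an adjusted p under 0.05 are said to have changed, risen or fallen. SE is the absolute log2 fold change over the square root of F. The fit was tested on simulated data. CPM values are TMM scaled. A group without any count was set to 3 counts over the group for the lower bound of a fold. The counts of the other group were taken as exact, so the bound leaves out their counting error and the spread between libraries. Intervals are exact binomial at 95% and cover counting error only.

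Relatives of the members were found with blastn 2.17.0 on GENCODE transcripts (at least 500 aligned bases and 50% identity), in place of a comparison of proteins, which was not made here. The likeness of profiles is the root mean square distance between centred log2 CPM values (prior count of 2) over the 8 libraries. The alternatives were DESeq2 1.42.0, RLE factors, no low-count filter, limma 3.58.1 on log2(TPM + 1) and log2(TPM + 0.1), only the libraries compared, a replicate block, and leaving out each library. The named genes are the members, up to 8 genes within 500 kb by mean CPM, up to 10 relatives by identity, up to 4 changed genes from each list by adjusted p (or, where none changed, the 2 with the highest mean CPM), Cul3, Rbx1, Spop, Spopl and Duxf3, and the 5 nearest profiles without predicted models. A gene of the BTB adaptor list that this rule names is not reported here. The members, lists and rules were chosen with earlier results of these data known. Nothing says whether replicates came from separate cultures, so p-values measure only the spread between these libraries.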

Additional observations from a re-analysis of the deposited data

How the results depend on the processing

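No directions changed for the members except Tdpoz1 in 2C::GFP+/SGC against 2C::GFP+ (-0.16 without 2C::GFP+/SGC replicate 1, and -0.16 to 2.44 over all libraries left out) and Tdpoz2 in 2C::GFP+/SA against 2C::GFP+/SGC (-0.11 with limma on log2(TPM + 0.1) and -2.46 without 2C::GFP+/SA replicate 1, and -2.46 to 1.95 over all libraries left out). Of the alternative values of single members, 249 kept direction and side of the threshold, 36 lost the call, 8 gained one and 3 turned round. The cause was not tested.

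In 2C::GFP+ against mESC, 5016 genes changed, 2799 with limma on log2(TPM + 1), 3232 with limma on log2(TPM + 0.1), and 2872 to 5869 with a library left out, and the members called, 3, became 0 to 4. In 2C::GFP+/SGC against 2C::GFP+, 0 genes changed, 274 with DESeq2 (81.4% of them higher), 499 without the low-count filter, 1 with limma on log2(TPM + 0.1), 326 with only the libraries compared, 284 with the replicate block, and 0 to 431 with a library left out. The members called, 0, became 1 with the replicate block and stayed at 0 with a library left out. In 2C::GFP+/SA against 2C::GFP+, 5910 genes changed, and 2890 to 5861 with a library left out, with 1 to 4 members in place of 4. In 2C::GFP+/SA against 2C::GFP+/SGC, 3319 genes changed, 2210 with only the libraries compared, and 1207 to 3324 with a library left out. The members called, 2, became 1 with only the libraries compared and 1 when low counts were kept, and were fewer with some libraries left out. DESeq2, limma on log2(TPM + 1) or log2(TPM + 0.1), and the replicate block each called 3. In 2C::GFP+/SA against mESC, 9288 genes changed, and 6630 to 9648 with a library left out, with 3 to 4 members.

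The log2 ratio of the family sum in 2C::GFP+ over mESC was 6.31, 7.14 within replicate 1, and 5.89 to 6.9 with a library left out. In 2C::GFP+/SA over mESC it was 10.38, 8.96 within replicate 2, and 9.38 to 10.97 with a library left out. With a library left out it was 0.33 to 1.57 in 2C::GFP+/SGC over 2C::GFP+, 3.07 to 4.66 in 2C::GFP+/SA over 2C::GFP+, and 1.99 to 3.74 in 2C::GFP+/SA over 2C::GFP+/SGC. The share of Tdpoz3 in 2C::GFP+/SGC, 57.5% of counts, was 58.3% of TPM, an alternative chosen after seeing the data, as were the lower bounds of folds with libraries weighted equally or left out.

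No label ties libraries of equal replicate number to each other. The number also marks depth in every group, with 96895327 to 145810034 counts in replicate 1 and 12299931 to 19544870 in replicate 2. Depth and a shared source thus cannot be told apart by it. The correlations of deviations between libraries of equal number were all positive but weak (0.0411 to 0.142), which leaves a shared source of the numbers undecided. The replicate block, which also takes up depth, is an alternative only. It changed 3 member calls, all to passing: Tdpoz2 in 2C::GFP+ against mESC (5.65, adjusted p = 0.0386), Tdpoz4 in 2C::GFP+/SGC against 2C::GFP+ (1.35, adjusted p = 0.00949) and Tdpoz3 in 2C::GFP+/SA against 2C::GFP+/SGC (3.02, adjusted p = 0.0126). A group left with 1 library was assumed to vary like the others. Tdpoz1 or Tdpoz2 did not pass the filter in some fits of only 4 libraries. Depth limits Tdpoz1, Tdpoz2 and all members in mESC, where replicate 2 held few or no counts.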
